A study of Ovis aries with 4 samples.

Results

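The voltage-gated calcium channel and sodium channel genes of the sheep striatum are described here across nuclei classes and libraries. The members are the 36 genes, of 26478 listed, whose symbol in the gene list of the nuclei libraries starts with CACNA, CACNB or CACNG or has the form SCN, a number, and A or B. They hold 26 CACN genes and 10 SCN genes. Over both nuclei libraries, 30 members had at least 100 unique molecular identifiers (UMIs, each a captured RNA molecule) and 6 had between 20 and 83. Those 6 are CACNA1F, CACNA1S, CACNG1, CACNG6, SCN4A and SCN10A, and they are given by count only. SCN1A, SCN7A and SCN9A were not analysed here. The identifier named SCN2A in the gene list of the whole cells libraries has no symbol in the nuclei list, so it falls outside the rule and its values are given separately.

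Frozen striatum of 4 sheep (Ovis aries), each 5 years old, was sequenced in droplets as whole cells and as isolated nuclei. Each library held a pool of 2 animals, sheep 1 with 2 (replicate 1) or sheep 3 with 4 (replicate 2), and there were 2 libraries of whole cells and 2 of nuclei. No animal received a treatment or carried an allele that the labels name, and single animals cannot be told apart within a pool. Whole cells were released by papain digestion and nuclei by detergent homogenisation. Whole cells replicate 1 held 1115058 UMIs and whole cells replicate 2 held 19241918. The nuclei libraries held 70473292 and 51102420.

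A voltage-gated calcium channel is built around a pore-forming alpha-1 subunit that opens when the membrane depolarises. High-voltage activated alpha-1 subunits carry calcium for transmitter release, dendritic signalling and gene regulation, and low-voltage activated (T-type) ones open near rest and favour burst firing. Alpha-2-delta and beta subunits bring high-voltage activated channels to the membrane and tune their gating. Most gamma family proteins in brain act instead on AMPA-type glutamate receptors and are called TARPs. Sodium channel alpha subunits carry the upstroke of the action potential, and the sodium channel beta subunits modulate them and act in cell adhesion. Medium spiny neurons, which make up most striatal neurons, are inhibitory projection neurons with long silent periods between bouts of firing.

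Nuclei were grouped into classes by clustering that left out all 36 genes and SCN2A, so that the channel genes did not define the classes. Of 16698 clustered nuclei in 21 clusters, 6 classes had at least 50 nuclei in each library. Nuclei replicate 1 held 1249 medium spiny neuron-like, 651 interneuron-like, 587 oligodendrocyte precursor-like, 717 astrocyte-like, 814 microglia-like and 3825 oligodendrocyte-like nuclei. Nuclei replicate 2 held 1300, 468, 789, 648, 869 and 3898 in the same order. The classes were named from fixed markers, so the levels of those markers describe the classes and do not test the names. All 14 spiny neuron markers, 11 of 11 precursor, 11 of 11 astrocyte, 12 of 12 microglia and 12 of 12 oligodendrocyte markers found in the gene list, and 14 of 19 interneuron markers, were highest in their own class. Most spiny nuclei came from different clusters in the libraries: 562 and 609 nuclei of replicate 1 lay in clusters that held 170 and 160 of replicate 2, and 886 nuclei of replicate 2 lay in a cluster that held 6 of replicate 1. The nuclei libraries shared 29 barcode sequences. Below, a level is the UMI count of a gene per 1000000 UMIs of a class in a library (CPM), and pairs of values give nuclei replicate 1 and then replicate 2. Classes are said to overlap unless both values of one lie above both values of the other. This description does not use the pairing by library that the tests use, so overlapping classes can still differ within each library. Levels are compared between classes for a gene and not between genes, because the files hold no gene lengths.

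The CACN genes took a larger share of the RNA in neurons than in glia. They made up 0.803% and 0.839% of all UMIs of medium spiny neuron-like nuclei and 0.473% and 0.660% of those of interneuron-like nuclei. The shares were 0.269% and 0.242% in precursors, 0.177% and 0.167% in astrocyte-like nuclei, 0.111% and 0.112% in oligodendrocyte-like nuclei and 0.0782% and 0.0912% in microglia-like nuclei. The SCN genes made up 0.0956% and 0.0946% in spiny neurons, 0.0683% and 0.0655% in interneurons and 0.0517% and 0.0507% in precursors. In oligodendrocyte-like nuclei they made up 0.0168% and 0.0183%, and in astrocyte-like nuclei 0.00987% and 0.0117%. For both families the spiny neurons stood above the interneurons in both libraries, and precursors stood above every other glial class. These sums lean on a few genes. CACNA2D3 held 93736 and 63583 of the 351190 and 244187 CACN UMIs of spiny neurons. CACNA2D1 held 7776 and 5662 of the 11031 and 8463 CACN UMIs of oligodendrocyte-like nuclei. Of the 30 members with at least 100 UMIs, 14 had their highest mean level in spiny neurons, 13 in interneurons, and 1 each in precursors (CACNG4), astrocyte-like nuclei (SCN11A) and microglia-like nuclei (CACNA2D4). For many of these genes, SCN11A and CACNA2D4 among them, the top class overlapped the next. SCN11A was at 2.97 and 5.06 CPM in astrocyte-like nuclei (8 and 11 UMIs) and 3.53 and 3.96 in oligodendrocyte-like nuclei.

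**Figure D1:**
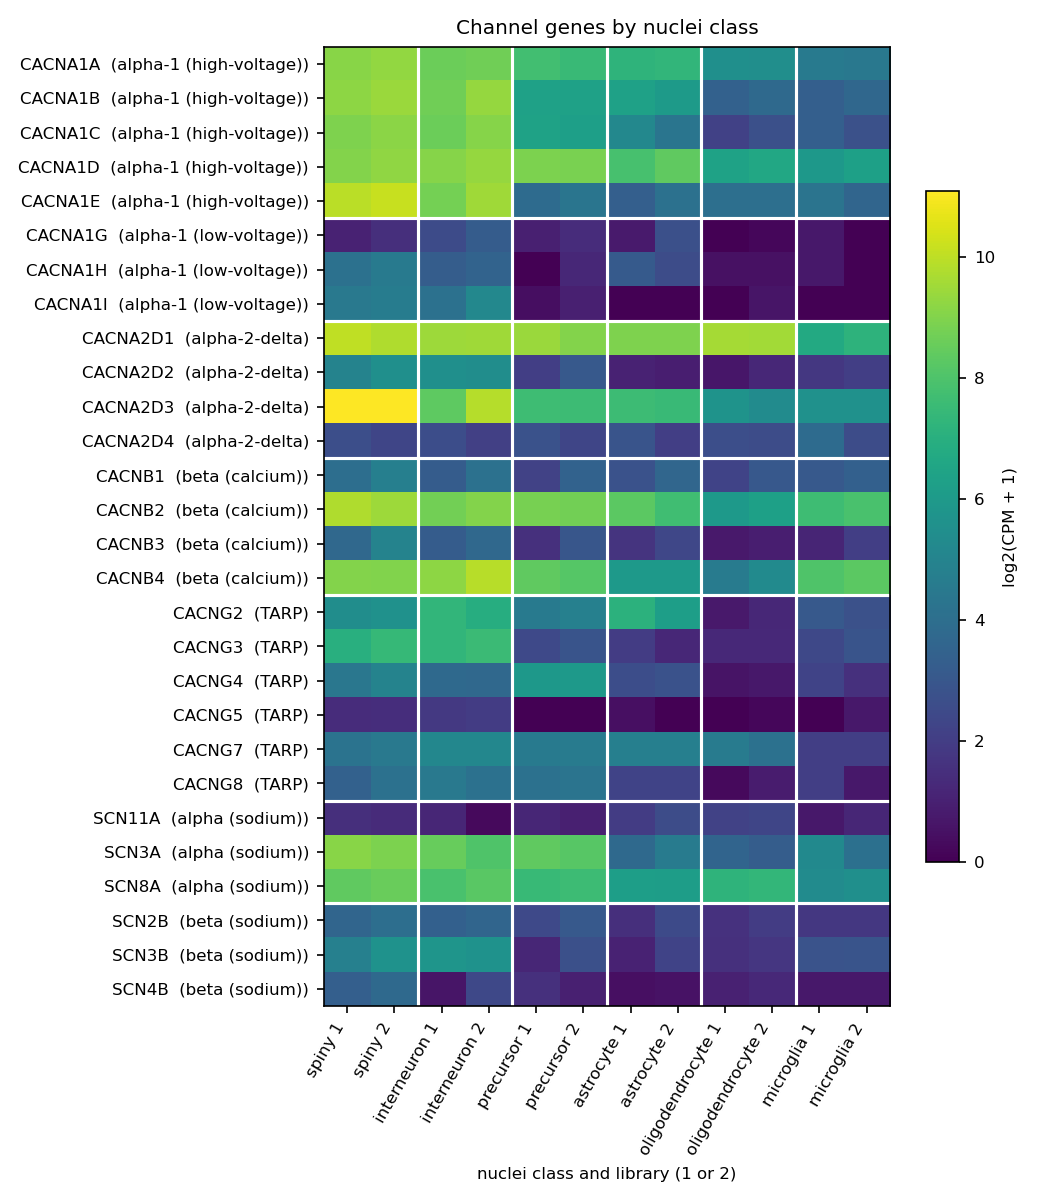
Level of reported members with at least 100 UMIs, as log2(CPM + 1) by colour, in the 6 nuclei classes (pairs of columns are nuclei replicates 1 and 2), with genes grouped by role. CACNA1E is bright in both neuron classes and dark in all glia, SCN3A is bright in neurons and precursors, and CACNG4 is brightest in precursors.

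Against oligodendrocyte-like nuclei, the most numerous glia, spiny neurons carried more of nearly all the channel genes. Of 29 members tested, 26 were higher and 1 was lower in spiny neurons (edgeR quasi-likelihood test with the library as a term, Benjamini-Hochberg adjusted p under 0.05). Over all genes tested, 32.6% were higher and 31.9% lower. The median log2 fold change was 4.53 over the members and -0.01 over all genes. All 5 tested high-voltage activated alpha-1 genes, all 3 low-voltage activated ones, 3 of 4 alpha-2-delta genes, all 4 calcium channel beta genes and 4 of 5 TARPs were higher. The 2 members that did not pass were CACNA2D4 and CACNG7.

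The high-voltage activated alpha-1 genes differed in how much of their spiny neuron level was found in glia. CACNA1C, the pore of an L-type channel that links activity to transcription, was at 490 and 574 CPM in spiny neurons, 393 and 538 in interneurons, 83.5 and 75.1 in precursors, 35.6 and 18.8 in astrocyte-like nuclei, 9.34 and 5.66 in microglia-like nuclei and 3.43 and 5.55 in oligodendrocyte-like nuclei. The neuron values overlapped each other and lay above every glial value. The log2 fold change of spiny neurons over oligodendrocyte-like nuclei was 7.10 ± 0.36 (SE), with an edgeR adjusted p of 3.41e-08. CACNA1E, the R-type pore, was at 977 and 1151 CPM in spiny neurons and 443 and 736 in interneurons, and between 9.27 and 18.9 CPM in all 8 glial values. The glial classes overlapped each other for this gene, and its log2 fold change in spiny neurons over oligodendrocyte-like nuclei was 6.28 ± 0.30 (edgeR adjusted p 2.43e-08). CACNA1B, the N-type pore of transmitter release, was at 584 and 693 CPM in spiny neurons, 415 and 654 in interneurons, 81.3 and 80.7 in precursors, 79.8 and 65.3 in astrocyte-like nuclei, 9.88 and 12.8 in oligodendrocyte-like nuclei and 9.34 and 11.9 in microglia-like nuclei. Precursors and astrocyte-like nuclei thus lay between neurons and the other glia. The log2 fold change of spiny neurons over oligodendrocyte-like nuclei was 6.01 ± 0.27 (edgeR adjusted p 1.60e-08).

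CACNA1D, the other brain L-type pore, was spread more widely. Its levels were 542 and 648 CPM in interneurons, 522 and 610 in spiny neurons, 485 and 463 in precursors and 234 and 330 in astrocyte-like nuclei. Interneurons and spiny neurons overlapped, precursors lay just below both, and oligodendrocyte-like nuclei were at 82.3 and 101 CPM. CACNA1A, the P/Q-type pore of transmitter release, was at 552 and 629 CPM in spiny neurons, 382 and 407 in interneurons, 211 and 181 in precursors and 147 and 159 in astrocyte-like nuclei, and no class overlapped the next. In precursors CACNA1D stood at 92.8% and 75.9% of its spiny neuron level and CACNA1A at 38.1% and 28.8%, while CACNA1E stood at 1.40% and 1.64%. The ratio to spiny neurons therefore differed widely between genes within the same nuclei.

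The T-type genes followed different classes. CACNA1I was at 21.1 and 24.6 CPM in spiny neurons and 16.8 and 35.2 in interneurons, and had 0 and 4 UMIs in oligodendrocyte-like nuclei. It had 0 UMIs in astrocyte-like nuclei of both libraries, where 3 counts, the limit set by a count of 0, would be 1.11 and 1.38 CPM. Its log2 fold change in spiny neurons over oligodendrocyte-like nuclei was 6.77 ± 0.55 (edgeR adjusted p 4.97e-06) and was 5.54 without nuclei replicate 1. CACNA1H was at 16.9 and 22.2 CPM in spiny neurons, 8.65 and 10.7 in interneurons, 7.79 and 5.06 in astrocyte-like nuclei and 0.403 and 0.396 in oligodendrocyte-like nuclei. Spiny neurons did not overlap interneurons, and the log2 fold change over oligodendrocyte-like nuclei was 5.73 ± 0.45 (edgeR adjusted p 6.98e-07). CACNA1G ran the other way between the neuron classes, at 4.72 and 8.45 CPM in interneurons and 1.07 and 1.82 in spiny neurons. In oligodendrocyte-like nuclei it had 0 and 1 UMIs, against 47 and 53 in spiny neurons. The ratio of the pooled levels was 24.0, with an exact 95% interval of 4.21 to 958 that covers counting error only.

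Alpha-2-delta genes ranged from sharply neuronal to nearly even. CACNA2D3 was at 2142 and 2185 CPM in spiny neurons, 326 and 918 in interneurons, 202 and 195 in precursors, 194 and 183 in astrocyte-like nuclei, 48.0 and 47.8 in microglia-like nuclei and 50.6 and 39.5 in oligodendrocyte-like nuclei. The spiny values lay close together and stood above every other class. The log2 fold change over oligodendrocyte-like nuclei was 5.77 ± 0.45 (edgeR adjusted p 7.57e-07). CACNA2D1, the classical target of gabapentin, was at 1056 and 881 CPM in spiny neurons, 784 and 748 in oligodendrocyte-like nuclei, 714 and 720 in interneurons, 681 and 530 in precursors and 493 and 487 in astrocyte-like nuclei. Only microglia-like nuclei, at 107 and 143 CPM, stood far below the rest. CACNA2D2 was highest in neurons, at 45.3 and 42.0 CPM in interneurons, 29.8 and 45.2 in spiny neurons and at most 7.61 in any glial class. CACNA2D4 stayed between 3.22 and 13.7 CPM in all classes, and each class overlapped the next.

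CACNB2, CACNB3 and CACNB4, which encode calcium channel beta subunits, were highest in neurons and differed in their levels among glia. CACNB2 was at 861 and 713 CPM in spiny neurons, 426 and 526 in interneurons, 457 and 419 in precursors, 314 and 205 in astrocyte-like nuclei, 198 and 238 in microglia-like nuclei and 60.5 and 77.4 in oligodendrocyte-like nuclei. CACNB4 was at 597 and 952 CPM in interneurons, 521 and 510 in spiny neurons, 335 and 290 in precursors, 262 and 317 in microglia-like nuclei, 63.4 and 61.1 in astrocyte-like nuclei and 23.4 and 38.2 in oligodendrocyte-like nuclei. CACNB3 was at 12.5 and 30.0 CPM in spiny neurons, 8.39 and 12.6 in interneurons, 1.91 and 6.95 in precursors, 2.23 and 4.14 in astrocyte-like nuclei, 1.25 and 3.14 in microglia-like nuclei and 0.705 and 0.925 in oligodendrocyte-like nuclei. The glial values of CACNB3 rest on 2 to 21 UMIs each.

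The TARPs, which control traffic and gating of AMPA receptors, marked different classes. CACNG3 was a neuronal gene, at 155 and 187 CPM in interneurons and 126 and 169 in spiny neurons against at most 6.29 in any glial class. Its log2 fold change in spiny neurons over oligodendrocyte-like nuclei was 6.85 ± 0.22 (edgeR adjusted p 5.47e-09). CACNG2, the gene mutated in the stargazer mouse, was at 159 and 119 CPM in interneurons, 139 and 72.6 in astrocyte-like nuclei, 42.0 and 48.6 in spiny neurons, 22.9 and 27.8 in precursors and 0.705 and 1.32 in oligodendrocyte-like nuclei. Astrocyte-like nuclei overlapped interneurons and exceeded spiny neurons in both libraries. CACNG4 was highest in precursors, at 59.4 and 61.8 CPM, with 20.0 and 30.0 in spiny neurons, 12.8 and 12.4 in interneurons and 0.504 and 0.661 in oligodendrocyte-like nuclei. CACNG7 was at 33.8 CPM in interneurons of both libraries, between 16.7 and 26.7 CPM in spiny neurons, precursors, astrocyte-like and oligodendrocyte-like nuclei, and at 3.11 and 3.14 in microglia-like nuclei. CACNG8 was at 21.5 and 16.5 CPM in interneurons, 16.5 and 18.2 in precursors and 0.202 and 0.793 in oligodendrocyte-like nuclei. CACNG7 and CACNG8 are direct neighbours in the RefSeq annotation of the sheep assembly ARS-UI_Ramb_v3.0, yet the first was present in oligodendrocyte-like nuclei and the second was at 2 and 6 UMIs there. The same annotation places CACNG5, CACNG4 and CACNG1 next to each other, and SCN4B next to SCN2B. It held 33 of the 36 symbols.

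Sodium channel alpha genes fell into a neuron and precursor gene, SCN3A, and a gene present in all classes, SCN8A. SCN3A was at 561 and 475 CPM in spiny neurons, 367 and 261 in interneurons, 331 and 296 in precursors, 37.4 and 16.3 in microglia-like nuclei, 13.0 and 23.4 in astrocyte-like nuclei and 10.9 and 8.59 in oligodendrocyte-like nuclei. Interneurons and precursors overlapped. The log2 fold change of spiny neurons over oligodendrocyte-like nuclei was 5.93 ± 0.32 (edgeR adjusted p 4.45e-08). SCN8A, a main channel of the axon initial segment and nodes, was at 337 and 377 CPM in spiny neurons, 241 and 301 in interneurons, 176 and 193 in precursors, 148 and 162 in oligodendrocyte-like nuclei, 72.7 and 71.2 in astrocyte-like nuclei and 39.9 and 45.3 in microglia-like nuclei. No class overlapped the next for SCN8A. SCN11A was the lone member lower in spiny neurons than in oligodendrocyte-like nuclei, at 1.85 and 1.58 against 3.53 and 3.96 CPM (log2 fold change -0.91 ± 0.36, edgeR adjusted p 0.0464). That call was lost without the library term and under 7 other alternatives. The SCN2A identifier was at 423 and 353 CPM in spiny neurons, 276 and 288 in interneurons, 184 and 181 in precursors and 21.9 and 30.8 in oligodendrocyte-like nuclei. How reads shared by near-identical sodium channel genes were counted is not given in the sources used here, so the split between such genes is uncertain.

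The sodium channel beta genes described here stood above every glial value in spiny neurons of both libraries. SCN3B was at 53.5 and 49.2 CPM in interneurons and 27.6 and 49.2 in spiny neurons, against at most 6.29 in any glial class. SCN4B, which supports resurgent sodium current, was at 9.37 and 13.0 CPM in spiny neurons, 0.524 and 4.33 in interneurons and at most 1.91 in any glial class. SCN2B was at 11.2 and 15.3 CPM in spiny neurons and 9.44 and 11.3 in interneurons. These ranges overlapped across libraries, but within each library the interneurons were lower, at 84.3% and 74.1% of the spiny level.

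**Figure D2:**
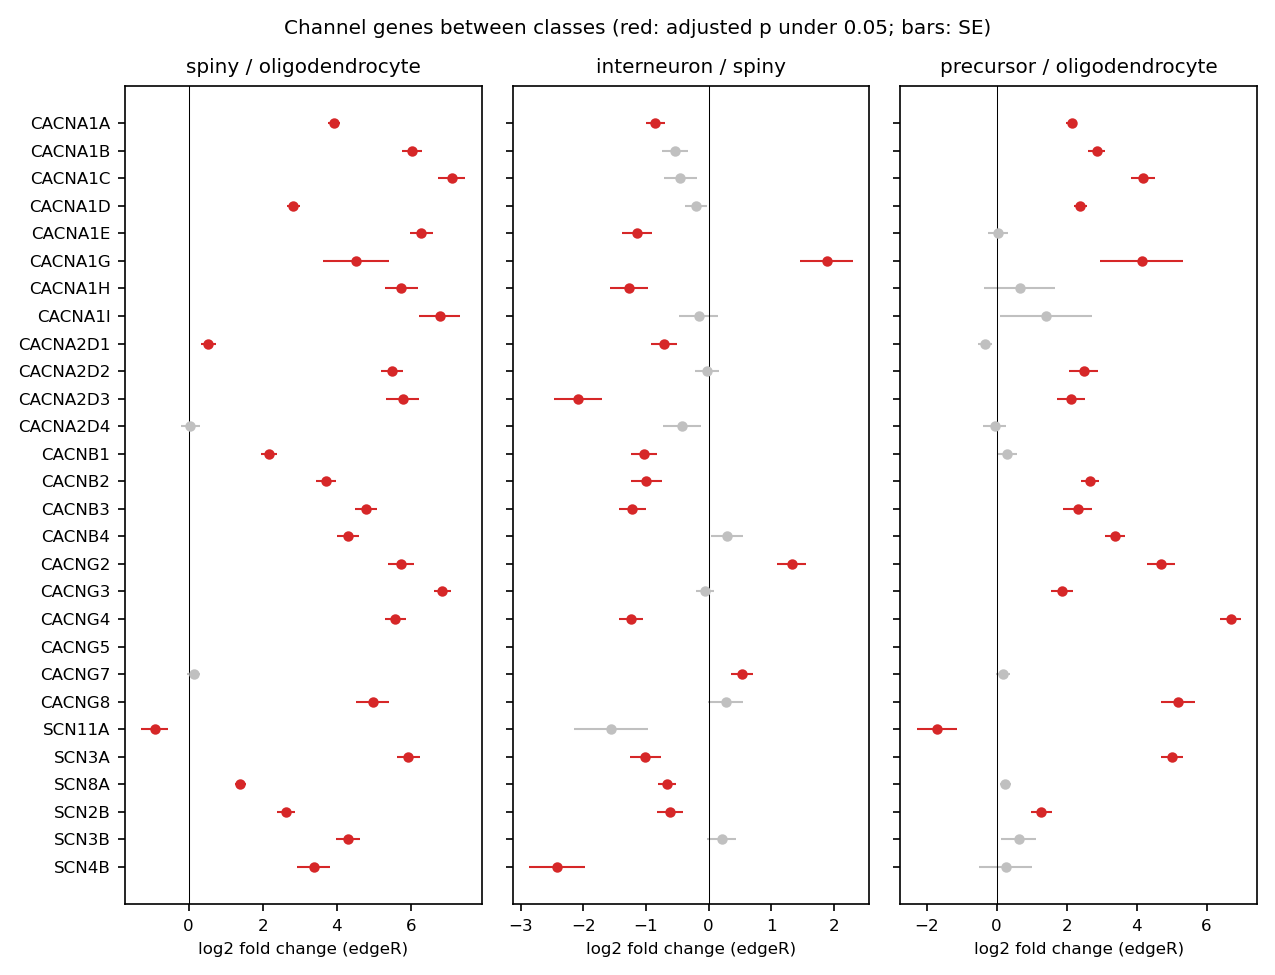
Log2 fold change (edgeR) of reported members with at least 100 UMIs in 3 contrasts of nuclei classes, with bars for the SE and red points for adjusted p under 0.05. Nearly all points lie right of 0 for spiny neurons over oligodendrocyte-like nuclei, 13 red points lie left of 0 for interneurons over spiny neurons, and CACNG4 lies farthest right for precursors over oligodendrocyte-like nuclei at 6.69.

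Interneurons carried less of many channel genes than spiny neurons. Of 29 members tested, 13 were lower and 4 higher, against 15.9% lower and 16.9% higher over all genes tested. The median log2 fold change was -0.53 over the members and 0.00 over all genes. Without the library as a term, 7 were lower and 1 was higher, against 10.2% and 11.5% over all genes. The higher genes included CACNA1G (1.89 ± 0.42 on the log2 scale, edgeR adjusted p 0.00533), CACNG2 (1.33 ± 0.23, adjusted p 0.00107) and CACNG7 (0.54 ± 0.18, adjusted p 0.0358, lost under 8 alternatives). SCN4B and CACNA2D3 fell by 2.42 ± 0.45 and 2.08 ± 0.39 on the log2 scale (edgeR adjusted p 0.00171 and 0.00184). Both moved with the animal pool: without nuclei replicate 1 the log2 fold changes were -1.58 and -1.25, and without nuclei replicate 2 CACNA2D3 was at -2.72. SCN4B had 2 and 21 UMIs in interneurons against 410 and 377 in spiny neurons, so no fold change is given for it without nuclei replicate 2. CACNA1H, CACNG4, CACNB3, CACNA1E, CACNB1, SCN3A, CACNB2 and CACNA1A were lower by between -1.27 and -0.85. Without nuclei replicate 2, CACNG4 was at -0.64, CACNB3 at -0.58 and CACNG2 at 1.92. Of the 5 high-voltage activated alpha-1 genes, CACNA1A and CACNA1E passed, the first losing its call with at least 500 genes per nucleus (edgeR adjusted p 0.0924), and CACNA1B, CACNA1C and CACNA1D, at -0.53 ± 0.21, -0.45 ± 0.26 and -0.20 ± 0.17, did not. No test compared these genes with each other. Most interneuron-like nuclei, 484 and 280, came from a single cluster of few UMIs per nucleus. Without that cluster 12 members were lower and 4 higher, against 16.1% and 14.6% over all genes.

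Clustering the 3844 neuron nuclei again, without the channel genes, gave 13 subclusters, of which 6 had at least 50 nuclei in each library. The named ones were D1 type-like (345 and 125 nuclei), D2 type-like (500 and 118) and eccentric spiny-like (74 and 93) neurons and PVALB interneuron-like neurons (89 and 90). D1 and D2 types are the spiny neurons of the direct and indirect pathways, eccentric spiny neurons are a rarer spiny type, and PVALB interneurons are fast-spiking. Another 2 D1 type-like subclusters lay almost wholly in 1 library each (148 and 13, and 6 and 785 nuclei), so the values of the D1 type below come from 470 of the D1 type-like nuclei and leave these out. No test was run between subclusters. CACNA2D3 was at 2367 and 2607 CPM in the D1 type and 2320 and 2634 in the D2 type, which overlapped. CACNA2D2 did not overlap, at 15.7 and 28.3 CPM in the D1 type and 33.2 and 60.9 in the D2 type. In the left-out D1 type-like subclusters, each in the library that held most of it, CACNA2D3 was at 1883 CPM (replicate 1) and 2160 CPM (replicate 2). CACNA2D2 was at 11.1 and 38.9 CPM there, and the second value lies within the D2 range.

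Eccentric spiny-like neurons stood apart from both for several members. CACNA2D3 was at 703 and 1242 CPM and CACNA1A at 194 and 325 CPM, against at least 573 CPM of CACNA1A in each D1 or D2 value and 461 and 628 CPM in the left-out D1 type-like subclusters. CACNA1I was at 39.7 and 43.8 CPM there, against 20.4 and 27.2 in the D1 type and 18.8 and 29.9 in the D2 type. CACNA1G was at 6.54 and 12.7 CPM, against 0.964 and 1.25 in the D1 type. In none of these genes did the eccentric values overlap those of the D1 or D2 type.

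PVALB interneuron-like neurons had less CACNA1E, at 256 and 338 CPM, than every spiny type shown, and less CACNA2D3, at 248 and 365 CPM. CACNA1I, at 4.27 and 2.27 CPM, and SCN3A, at 234 and 204 CPM, were also below every named spiny type. They had more CACNG2, at 164 and 197 CPM, and SCN3B, at 70.8 and 81.8. CACNA1D, at 730 and 811 CPM, lay above the eccentric type (465 and 528 CPM) and overlapped the D1 type (542 and 735 CPM). An unnamed subcluster of 432 and 248 nuclei with few UMIs, led by PDZRN3, VCAN and TOX3, had SCN3A at 682 and 522 CPM and CACNG2 at 281 and 165, but CACNA1E at only 66.6 and 141 CPM. These genes were singled out after their values were seen.

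**Figure D3:**
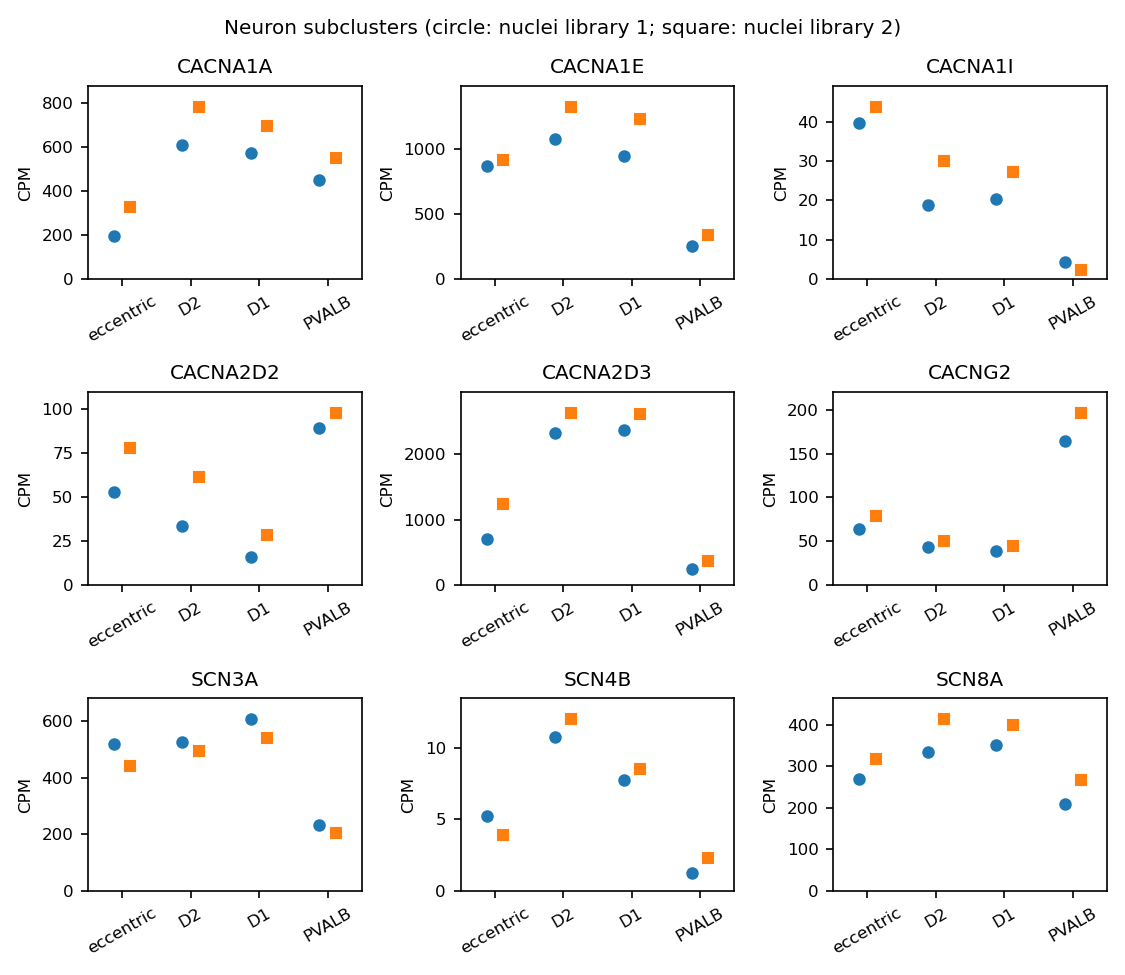
Level in CPM of 9 members in the named neuron subclusters with at least 50 nuclei in each library, with circles for nuclei replicate 1 and squares for replicate 2. CACNA1I is highest in the eccentric spiny-like neurons, and CACNG2 is highest and CACNA1E lowest in the PVALB interneuron-like neurons.

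Oligodendrocyte precursors, the dividing cells that give rise to oligodendrocytes and receive synapses from neurons, carried more of many channel genes than oligodendrocyte-like nuclei. Of 29 members tested, 16 were higher and 1 was lower, against 23.4% higher and 20.5% lower over all genes tested. The median log2 fold change was 1.87 over the members and -0.05 over all genes. CACNG4 had the largest difference, with 187 UMIs in each library against 5 in each (log2 fold change 6.69 ± 0.29, edgeR adjusted p 3.98e-08). CACNG8 followed at 5.19 ± 0.49 (adjusted p 6.86e-06), and was at 4.52 without nuclei replicate 1. It had 2 UMIs in oligodendrocyte-like nuclei of replicate 1, so no fold change is given without replicate 2. SCN3A was higher by 5.01 ± 0.31 (edgeR adjusted p 2.88e-07) and CACNG2 by 4.69 ± 0.39 (adjusted p 2.98e-06). CACNA1C, CACNB4, CACNA1B, CACNB2 and CACNA2D2 were higher by 4.17 to 2.49 on the log2 scale. CACNA1G had 3 and 5 UMIs against 0 and 1, a pooled ratio of 22.7 with an exact 95% interval of 3.04 to 1006. CACNA1E (0.04 ± 0.30), SCN8A (0.25 ± 0.15) and CACNA2D1 (-0.34 ± 0.21) did not pass. SCN11A was lower, with 4 and 3 UMIs against 35 and 30 (-1.70 ± 0.58, edgeR adjusted p 0.0339), a call that 4 alternatives lost.

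Astrocyte-like nuclei were higher than oligodendrocyte-like nuclei for 15 of 29 members and lower for 2, against 23.5% and 20.6% over all genes tested. The median log2 fold change was 0.75 over the members and -0.04 over all genes. CACNG2 led, with 375 and 158 UMIs against 7 and 10 (log2 fold change 6.43 ± 0.36, edgeR adjusted p 1.92e-07, 5.78 without nuclei replicate 1 and 7.62 without replicate 2). CACNA1H, at 3.68 ± 0.61, had 21 and 11 UMIs against 4 and 3 and was at 4.27 without nuclei replicate 2. CACNA1G had 2 and 12 UMIs against 0 and 1, a pooled ratio of 50.3 with an exact 95% interval of 7.65 to 2125. CACNG4 (2.94 ± 0.43), CACNG8 (2.67 ± 0.69), CACNA1B (2.40 ± 0.25), CACNA1C (2.34 ± 0.36) and CACNA2D3 (1.75 ± 0.39) were also higher. Of these, CACNA1B and CACNA1C were at 3.01 and 3.38 without nuclei replicate 2. CACNG8 had 10 and 8 UMIs against 2 and 6. It was at 4.20 without nuclei replicate 2, a value that rests on those 2 UMIs. SCN8A and CACNA2D1 were lower, by -1.41 ± 0.15 (edgeR adjusted p 2.29e-05) and -0.95 ± 0.21 (adjusted p 0.00342). The call of CACNA2D1 was lost with at least 500 genes per nucleus (edgeR adjusted p 0.0988).

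Microglia-like nuclei, the immune cells of the brain, were higher than oligodendrocyte-like nuclei for 6 of 29 members and lower for 6, against 22.1% and 25.1% over all genes tested. The median log2 fold change was -0.38 over the members and -0.09 over all genes. CACNB4 was higher by 2.80 ± 0.28 (edgeR adjusted p 8.40e-06, 3.49 without nuclei replicate 2) and CACNB2 by 1.21 ± 0.26 (adjusted p 0.00226). CACNG2, CACNG4 and CACNG3 were higher on few UMIs: CACNG4 had 6 and 3 UMIs, CACNG2 had 12 and 9 and CACNG3 had 7 and 10. SCN3A, with 60 and 26 UMIs, was also higher. CACNG2, CACNG4 and SCN3A lost the call when the channel genes were kept in the clustering and when the highest 8% of doublet scores were removed. SCN3A also lost it without the library term (edgeR adjusted p 0.0722). CACNG7 fell by 3.12 ± 0.32 (edgeR adjusted p 1.28e-05), CACNA2D1 by 3.06 ± 0.23 (adjusted p 1.16e-06) and SCN8A by 2.31 ± 0.17 (adjusted p 9.06e-07). Without nuclei replicate 1, CACNG7 was at -2.40 and CACNA2D1 at -2.39. CACNA1A and CACNA1D were lower by -1.49 ± 0.20 and -0.86 ± 0.19, and lost the call with at least 500 genes per nucleus and at Leiden resolution 1.0. CACNA1D also lost it under scaling by totals alone (edgeR adjusted p 0.0634). SCN11A had 1 and 2 UMIs against 35 and 30.

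Markers used to name spiny neurons also had UMIs in glial nuclei. The 14 spiny neuron markers summed to 8542 and 8305 CPM in spiny neurons, 2443 and 2278 in astrocyte-like, 1541 and 1190 in microglia-like, 1040 and 1011 in precursor-like and 1237 and 1122 in oligodendrocyte-like nuclei. Their median level relative to spiny neurons was 26.9% and 23.7% in astrocyte-like nuclei, 12.2% and 7.41% in microglia-like nuclei, 13.9% and 10.8% in precursors and 12.9% and 10.8% in oligodendrocyte-like nuclei. In each of these glial classes and libraries, the lowest of these markers was at most 3.04% of its spiny level. In astrocyte-like nuclei BCL11B, for example, was at 1.73% and 1.69% and MEIS2 at 81.0% and 86.2%. CACNA1E stood between 0.95% and 1.85% of its spiny level in all 8 glial values. In the same nuclei SCN3A stood at 59.0% and 62.3% in precursors, CACNG2 at 331.5% and 149.6% in astrocyte-like nuclei and CACNB4 at 50.3% and 62.2% in microglia-like nuclei. Members that were higher in these glia than in oligodendrocyte-like nuclei lay on both sides of the marker median. In astrocyte-like nuclei CACNA1D stood at 44.8% and 54.2% and CACNB2 at 36.5% and 28.7%, above it, and CACNA1B at 13.7% and 9.42%, CACNA2D3 at 9.06% and 8.37% and CACNA1C at 7.27% and 3.29%, below it. In microglia-like nuclei CACNB2 stood at 23.0% and 33.3%, above it, and SCN3A at 6.66% and 3.44% and CACNG3 at 3.46% and 3.71%, below it. Doublets were not removed from nuclei replicate 2. The part of doublets, or of neuron RNA carried into glial droplets, in the glial values was not tested beyond the alternatives named.

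Genes that act with the channels were counted from lists of partners. Of 10 tested partners of calcium channels at release sites, 10 were higher in spiny neurons than in oligodendrocyte-like nuclei, 9 in precursors and 7 in astrocyte-like nuclei, with none lower. Over all genes tested, 32.6%, 23.4% and 23.5% were higher in these comparisons. In microglia-like over oligodendrocyte-like nuclei 1 of the 10 was higher and 1 lower (22.1% and 25.1% over all genes), and in interneurons over spiny neurons 2 were higher and 2 lower (16.9% and 15.9%). In spiny neurons the list had a median log2 fold change of 4.56. Examples in spiny neurons are RIMBP2 (6.30 on the log2 scale), which ties channels to vesicles, and SYT1 (5.09), the calcium sensor of release. Of 5 tested genes of the sodium leak channel complex, 4 were higher in spiny neurons and 5 in precursors, where UNC79 was at 5.66 and NALCN, the pore, at 2.88. The median of these genes in spiny neurons was 3.76. Of 9 tested intracellular partners of sodium channels, 4 were higher and 2 lower in spiny neurons, against 32.6% and 31.9% of all genes, and their median was 0.39. FGF14 was higher by 6.55. NFASC, of the axon initial segment and also of myelinating cells, was lower by -1.56 and ANK2 by -0.62. Of 9 tested regulators that bind calcium channels, 6 were higher and 1 was lower in spiny neurons, with a median of 1.30. In astrocyte-like over oligodendrocyte-like nuclei 2 of these 9 were higher and 1 lower, against 23.5% and 20.6% of all genes, with a median of 0.56, and CACHD1 was at 8.49. These partner examples were singled out after their values were seen.

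The last comparison set nuclei against whole cells over all barcodes of a library, the question of the series. The channel genes were nearly absent from the whole cells libraries: all 36 together had 69 and 2489 UMIs there and 474277 and 344868 in nuclei. The CACN genes made up 0.600% and 0.606% of all UMIs in nuclei and 0.00448% and 0.00911% in whole cells, and the SCN genes 0.0730% and 0.0689% against 0.00170% and 0.00382%. Mitochondrial UMIs were 88.7% and 86.9% of the whole cells libraries and 0.779% and 0.776% of the nuclei libraries. With them left out, the CACN share was 0.605% and 0.611% in nuclei and 0.0397% and 0.0698% in whole cells, and the SCN share was 0.0736% and 0.0694% against 0.0151% and 0.0293%. In whole cells replicate 1, 16 members had no UMI and the most any member had was 13. In both whole cells libraries, 5 had no UMI.

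**Figure D4:**
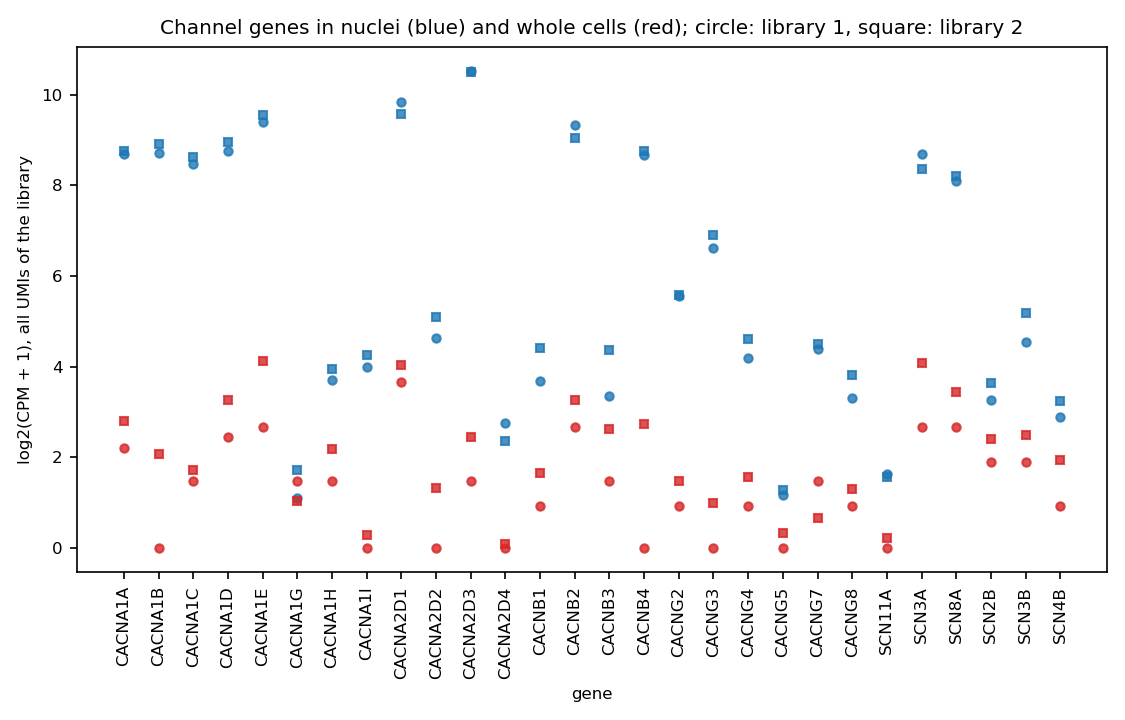
Level of reported members with at least 100 UMIs in the 4 libraries, as log2(CPM + 1) over all UMIs of a library, with nuclei in blue, whole cells in red, circles for replicate 1 and squares for replicate 2. The blue points lie above the red ones for every gene shown but CACNA1G, where the circle of whole cells replicate 1 (2 UMIs) lies above that of nuclei replicate 1.

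Most high-voltage activated pores and the alpha-2-delta genes were higher in nuclei, CACNA2D4 on a call that several alternatives lost, and 2 T-type pores, CACNB3 and 2 sodium channel beta genes were lower, under a scaling set by the bulk of the genes. Of 31 members tested, 17 were higher and 5 lower in nuclei, against 29.8% and 22.4% over all genes tested (edgeR with TMM scaling). The median log2 fold change was 1.83 over the members and 0.61 over all genes. CACNA2D3 had 103695 and 74049 UMIs in nuclei against 2 and 86 in whole cells (log2 fold change 5.54 ± 0.63, edgeR adjusted p 1.51e-08). CACNA1B had 29551 and 24605 against 0 and 62 (4.38 ± 0.63, adjusted p 7.18e-07), and CACNA1C had 24945 and 20136 against 2 and 44 (4.35 ± 0.59, adjusted p 2.58e-07). CACNG3 (3.81 ± 0.56), CACNB4 (3.57 ± 0.62), CACNA1I (3.28 ± 0.74), CACNA1A (3.28 ± 0.55), CACNB2 (3.27 ± 0.55) and CACNA1D (2.95 ± 0.54) were also higher. CACNA2D4 had 404 and 210 UMIs against 0 and 1, a pooled ratio of CPM, scaled by library totals, of 103 with an exact 95% interval of 18.4 to 4067. With TMM scaling its log2 fold change was 3.54 ± 1.21 (edgeR adjusted p 0.0145). That call was lost with the animal pool as a block (adjusted p 0.0730), with DESeq2 (0.0761), over barcodes with at least 200 genes, without nuclei replicate 1 (0.0648) and without whole cells replicate 2 (0.403). Whole cells replicate 1 held 0 UMIs of CACNA1B, CACNG3, CACNB4, CACNA1I and CACNA2D4, and 2 UMIs each of CACNA2D3 and CACNA1C, so no fold change without whole cells replicate 2 is given for them. The CACNA1I call was lost without that library (edgeR adjusted p 0.0686). Without it CACNA1A was at 4.13, CACNB2 at 4.04 and CACNA1D at 3.94, on 4 to 6 UMIs in whole cells.

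The 5 lower genes were CACNA1G (-2.53 ± 0.69), SCN2B (-1.76 ± 0.43), SCN4B (-1.53 ± 0.48), CACNB3 (-1.41 ± 0.45) and CACNA1H (-1.04 ± 0.44), and each turned positive, at 0.53, 1.34, 1.59, 1.71 and 2.06, when libraries were scaled by their totals alone. Under that scaling CACNA1G did not pass (edgeR adjusted p 0.514) and the other 4 were higher. It moved the median of all genes tested from 0.61 to 3.66, with 30 members higher and 0 lower, against 79.4% and 3.16% over all genes. CACNA1H, for example, had 853 and 737 UMIs in nuclei (12.1 and 14.4 CPM) against 2 and 68 in whole cells (1.79 and 3.53 CPM). With the animal pool as a block 13 members were higher and 1 was lower, against 20.4% and 14.2% over all genes. Lower calls numbered 0 without whole cells replicate 2 and 1 without either nuclei library. By role, 5 of 6 tested high-voltage activated alpha-1 genes, 4 of 4 alpha-2-delta genes and 3 of 6 TARPs were higher. The SCN2A identifier had 21845 and 13062 UMIs in nuclei against 24 and 919 in whole cells, and its log2 fold change of -0.05 ± 0.50 did not pass.

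Markers of cell types moved with this comparison. The 14 spiny neuron markers summed to 6171 and 5444 CPM in nuclei and 55.6 and 232 CPM in whole cells, with 2 at 0 in whole cells replicate 1, and the 7 pan-neuron markers to 9258 and 8854 against 162 and 361. The 12 oligodendrocyte markers summed to 1554 and 1889 CPM in nuclei and 343 and 92.9 in whole cells, with none at 0. In these library sums, fewer cells of a type and less RNA per cell cannot be told apart. The kind of library and the version of the counting program also changed together, and their parts cannot be told apart.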

How the data were processed

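Each library was a 10x Genomics droplet library of striatum. The authors deposited raw UMI counts per gene and barcode. Per the file headers, the counts came from Cell Ranger 6.0.1 for whole cells and 7.0.0 for nuclei. The submitters' processing notes name Cell Ranger 2.1.1 and 6.0.1 and STAR 2.7.2a. The genome build, annotation and counting of intronic reads are not given in the sources used here. The other deposited columns hold gene identifiers, symbols and barcodes.

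Kept nuclei had 200 or more detected genes, and mitochondrial genes (35 identifiers) gave no more than 5% of their UMIs. Scrublet removed 390 nuclei of replicate 1 and 0 of replicate 2, where it did not work. With scanpy 1.11.5, counts were scaled to 10000, logged and reduced to 2000 variable genes without the channel genes, 30 principal components and 15 neighbours, then clustered (Leiden resolution 0.5). Clusters were named from fixed markers raised at least 2-fold. The thresholds for leaving a cluster unnamed (4 of 21) were set after seeing the data. Counts were summed per library, or per library and class, and tested with edgeR 4.0.16 (TMM, filterByExpr, quasi-likelihood test, Benjamini-Hochberg over all genes tested, 0.05). The SE is the log2 fold change divided by the root of the quasi-F. The fit was also run on simulated counts with a fixed spread and a common mean profile. That simulation held no shift in composition, so it does not test the scaling of nuclei against whole cells. Intervals for 1 to 3 counts are exact binomial at 95% and, like the 3-count limit, cover counting error only.

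The class contrasts had the library as a term, and classes of a library share animals and droplets. Nuclei against whole cells had none. Animal pools were paired by the sample titles. The labels' protocol text instead names animals 2 and 3 for the second suspension. Deviations of same-pool libraries correlated at -0.0697 over 1791 genes. For nuclei against whole cells, with 2 pools per group, p-values reflect the spread between those pools. In the class contrasts the library term takes up the overall difference between pools. Their p-values reflect how class differences varied between the 2 nuclei libraries, with the spread estimated over all 6 classes together. In each comparison, at most 10 called members with the largest log2 fold change in each direction were named with values, beside uncalled members of their role. Levels of other members are given by role, and further genes are said to be singled out. The members and gene lists were chosen with earlier results of these data known. Alternatives were DESeq2 1.42.0, scaling by totals, no filter on low counts, the pool as a block or not, other cell filters, doublet removal and resolution, and leaving out libraries. Leaving out the largest interneuron cluster or the spiny cluster of 1 library was chosen after seeing the data. No sequences or coordinates are shown. Some members counted in the totals are not reported here by name, in the figures or among the named values.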

Additional observations from a re-analysis of the deposited data

Results flagged for a closer look

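For 6 differences, the log2 ratios of CPM within the animal pools (replicate 1, then replicate 2) had opposite signs, with at least 10 UMIs in each group; the difference between pools was not tested. For spiny neurons over oligodendrocyte-like nuclei this was CACNG7 (-0.41 and 0.35). For interneurons over spiny neurons these were CACNA1I (-0.33 and 0.52) and CACNA2D2 (0.60 and -0.10). For precursors over oligodendrocyte-like nuclei these were CACNA2D4 (0.18 and -0.34) and CACNA1E (-0.18 and 0.26), and for microglia-like over oligodendrocyte-like nuclei it was CACNA1E (0.23 and -0.47). None of these 6 differences had an adjusted p under 0.05 in the edgeR fit over both pools.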

How the results depend on the processing

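Of 72 log2 fold changes named under the stated rule, 49 kept their direction under every alternative run and their call under every alternative with a test. Leaving out a library in the class contrasts gave no test. There only the direction was checked, and a change in size still counted as kept. For nuclei against whole cells, scaling by totals alone gave 30 higher and 0 lower members in place of 17 and 5. The lower count was 1 with a replicate block, 2 with DESeq2 and 2 over barcodes with at least 200 genes. Over all genes, 14.2%, 15.6% and 11.7% were lower in these fits. Leaving out a library gave 12 to 18 higher and 0 to 5 lower members. The 5 lower genes reversed under scaling by totals: CACNA1G to 0.53, SCN2B to 1.34, SCN4B to 1.59, CACNB3 to 1.71 and CACNA1H to 2.06. SCN2B also reversed to 0.15 over barcodes with at least 200 genes, and SCN4B, CACNB3 and CACNA1H without whole cells replicate 2: over the libraries left out, SCN4B ranged from -1.70 to 0.30, CACNB3 from -1.99 to 0.23 and CACNA1H from -1.15 to 0.14. SCN2B was at -0.86 without whole cells replicate 2 (edgeR adjusted p 0.597). Whole cells replicate 1, on which the values without replicate 2 rest, held 1 to 3 UMIs of each of these 4 genes. The cause was not tested.

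For spiny neurons over oligodendrocyte-like nuclei, lower members numbered 0 in place of 1 with DESeq2, with no replicate block, with channel genes kept among the variable genes, with at least 500 genes per nucleus, with the highest 8% of doublet scores removed, at Leiden resolution 1.0, without the largest interneuron cluster and without the spiny cluster of 1 library. Over all genes, between 25.6% and 32.4% were lower in those fits. With no replicate block, interneurons over spiny neurons had 1 higher and 7 lower member genes, against 11.5% and 10.2% over all genes. For precursors over oligodendrocyte-like nuclei, lower members numbered 0 with DESeq2, with no replicate block, with at least 500 genes and at resolution 1.0. Between 14.7% and 19.3% of all genes were lower there. For astrocyte-like nuclei, 1 member was lower with at least 500 genes, against 18.8% of all genes. For microglia-like nuclei, 3 were higher with channel genes kept and 3 with doublet scores removed, and 3 were lower with at least 500 genes. The shares over all genes were 21.7%, 22.6% and 21.9% in the same order. In class contrasts, leaving out a library leaves no residual degrees of freedom, so it gave values with no test. Depth limits CACNA1G, CACNA1I and SCN11A in glia, where classes held between 0 and 35 of their UMIs per library.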

Other observations

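In neuron subclusters with under 50 nuclei in a library, some members stood at high levels. These were singled out after their values were seen, and no test was run. CACNB4 was at 2207 and 2154 CPM in SST interneuron-like neurons (22 and 30 nuclei), against 370 and 501 CPM in PVALB interneuron-like neurons and 513 and 541 CPM in D1 type-like neurons. Of 2 excitatory neuron-like subclusters, 1 lay almost wholly in replicate 1 (167 nuclei, against 1 in replicate 2), where CACNG3 was at 1215 CPM (283 UMIs). The other, of 10 and 49 nuclei, had CACNG3 at 134 and 171 CPM. PVALB interneuron-like neurons of replicate 1 had 204 CPM.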
